A study of Homo sapiens with 16 samples.

Results

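A set of 10 mRNAs that are known to start with a terminal oligopyrimidine tract, and that do not code for ribosomal proteins, was followed in WI-38 cells through RNA level, ribosome footprints and the ratio of both. They are EEF1A1, EEF1B2, EEF1D, EEF1G and EEF2, which code for the elongation factors of cytosolic translation, and TPT1, NAP1L1, HNRNPA1, NACA and BTF3. They were chosen by name, all 10 were found in both tables, which list 19201 genes in common, and all 10 passed the filter on low counts in both assays. WI-38 is an established line of diploid human lung fibroblasts whose cells reach replicative senescence in culture. The young groups were taken at passage 24 and the senescent groups at passage 36. Each was left untreated (control) or heat shocked for 2 h at a temperature that the labels print as 440C, read here as 44 °C, just before lysis. Every culture, controls included, had been starved of serum and then returned to complete medium before the experiment. RNA-seq and ribosome footprint sequencing (Ribo-seq) gave 16 libraries in 8 groups of 2. The labels do not say whether the 2 libraries of a group came from separate cultures, so the p-values measure the spread between these libraries, which may be technical. All groups are of 1 cell line, and senescence cannot be told apart from passage number.

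A terminal oligopyrimidine (TOP) tract is a run of pyrimidines that begins with a C at the cap of the mRNA. TOP mRNAs code mainly for ribosomal proteins and for factors of translation, and their entry into polysomes is controlled together, through the mTORC1 kinase and the cap-binding protein LARP1, so that cells make less translation machinery when nutrients or growth signals are short. In elongation, eEF1A brings aminoacyl-tRNA to the ribosome, the eEF1B complex (with subunits from EEF1B2, EEF1D and EEF1G) recharges eEF1A with GTP, and eEF2 moves the ribosome along by a codon.

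The start sites show which of these mRNAs begin with such a tract in the annotation. RefSeq promoter entries on GRCh38.p14 were matched by symbol for 8 of the 10 genes, with 9 start sites, and each line gives the 10 bases before the start site and the 20 from it on, 5′ to 3′ on the transcribed strand. Capitals mark the unbroken run of C and T that begins with a C at the first transcribed base.
EEF1A1 (chr6:73521013-73521042, minus strand): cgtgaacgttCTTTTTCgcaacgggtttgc
EEF1B2, second site (chr2:206159885-206159914, plus strand): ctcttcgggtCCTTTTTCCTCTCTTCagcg
EEF1G (chr11:62573872-62573901, minus strand): cgggcggcttactttgcggcagcgccgaga
EEF2 (chr19:3985444-3985473, minus strand): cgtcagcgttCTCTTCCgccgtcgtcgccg
TPT1 (chr13:45341164-45341193, minus strand): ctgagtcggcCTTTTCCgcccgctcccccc
NAP1L1 (chr12:76084666-76084695, minus strand): gctcttgggtCTTTTTTagcgccatctgct
NACA (chr12:56725280-56725309, minus strand): ctcgctcggtCTTTCTgccgccatcttggt
BTF3 (chr5:73498432-73498461, plus strand): cttccggcctCCCTTTagctgccatcttgc

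A C at the first base with at least 4 further pyrimidines was found at 7 of the 9 sites, on the transcribed strand at that position only. The tract was 7 bases long in EEF1A1, EEF2, TPT1 and NAP1L1, 6 in NACA and BTF3, and 16 at the second site of EEF1B2. The other site of EEF1B2 and the annotated site of EEF1G have no C at the first base. The same search matched 4.07% of 35116 start sites in the table, 5.40% of 13041 sites of genes tested for footprints per RNA, and 60.3% of 78 sites of ribosomal protein genes. A match is a description of the annotated letters, and no match says only that these letters are not in this window.

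Depth and the state of the libraries bear on every value that follows. Total counts ranged from 26434514 to 37126871 in RNA-seq and from 4581141 to 9104077 in Ribo-seq. The young control Ribo-seq libraries were nearly the same. Their counts differed with a chi-square of 1.73 per degree of freedom over 11377 genes. It was 17.2 to 38.7 in the other Ribo-seq groups and 67.5 to 105 in the RNA-seq groups. This measure grows with depth, so it does not rank the assays. The median absolute log2 difference within a group was 0.104 in the young control Ribo-seq pair. It was 0.354 to 0.414 in the other Ribo-seq groups and 0.296 to 0.385 in RNA-seq. The young control libraries were entered as 2 samples. For heat shock in senescent cells, the TPT1 changes and the number of the 10 that passed are also given with both summed into 1 sample. Other results are not given in that form. The senescent heat shock Ribo-seq libraries were the least alike, and the library numbered 2 gave the 10 mRNAs 0.831% of all counts against 1.51% in library 1. All 8 fibroblast markers had at least 1 TPM (transcripts-per-million, a level corrected for length) in RNA-seq in each condition, with a summed level of 6678 to 12483 TPM. Of 6 epithelial markers, 3 (KRT8, KRT18 and KRT19) reached 1 TPM in RNA-seq, with a summed level of 133 to 224 TPM over the 6, while EPCAM, CDH1 and KRT5 stayed under 1 TPM in every RNA-seq library. Of 4 leukocyte markers, 1 (CD68) reached it, with a summed level of 103 to 178 TPM, while PTPRC, LYZ and CD3E stayed under 1 TPM in every RNA-seq library, as did all 4 endothelial markers. The part of such cells in the results was not tested.

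The 10 mRNAs were abundant in these cells, with ranks of 8 to 845 among all genes in RNA-seq. TPM, which corrects for transcript length, gave the order in RNA-seq, as means over the 8 libraries. EEF1A1 stood at 7716 TPM (6662 to 8484), rank 8 of all genes, and EEF1G at 2644 TPM (2416 to 3019). EEF2 (1435 TPM), EEF1B2 (1290), NACA (982), TPT1 (943), BTF3 (873), HNRNPA1 (736) and EEF1D (603) followed, and in this stretch the ranges of each pair of neighbours overlapped. NAP1L1, a histone chaperone of the nucleosome assembly family, was lowest at 169 TPM (113 to 221), below the range of EEF1D. In Ribo-seq EEF1A1 again stood first, at 7712 TPM (2704 to 9689), rank 6 of all genes, and TPT1 came second at 1225 TPM (346 to 1888). BTF3 (1133 TPM), NACA (1118), HNRNPA1 (909), EEF1B2 (638), EEF1G (622), EEF2 (570), NAP1L1 (365) and EEF1D (280) followed, and each pair of neighbours below EEF1A1 overlapped in range. The length behind TPM was not the same in both assays. For TPT1 the counts per TPM were 1.56 to 1.60 times those of the median gene in RNA-seq and 0.318 to 0.406 times in Ribo-seq, so footprints per RNA are compared here within a gene and never between genes. Near-identical copies could take reads from a member. Genes named like a copy were found by symbol alone, and their likeness in sequence was not checked. The largest were BTF3L4 (22.8 TPM in RNA-seq, 195 TPM in Ribo-seq), a gene of the nascent chain list below, HNRNPA1P10 (9.03 TPM in RNA-seq) and HNRNPA1L2 (6.64 TPM in RNA-seq, 5.34 TPM in Ribo-seq).

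All changes below are log2 differences between groups from edgeR's quasi-likelihood fit across all genes, with the standard error, and a gene passed the test at a Benjamini-Hochberg adjusted p under 0.05 over all genes tested. Levels are scaled CPM, that is, counts-per-million (CPM) after TMM scaling of the libraries, given as library 1 and library 2 of each group. Footprints per RNA is the footprint change minus the RNA change over all 16 libraries.

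Without heat shock, none of the 10 mRNAs passed the test between senescent and young cells in RNA, footprints or footprints per RNA. In RNA-seq 0 of 10 passed, against 0.0379% of 13177 genes (949 at an unadjusted p under 0.05, none of them a member; DESeq2 called 144 genes and limma 3, no member), and the differences ran from −0.31 (HNRNPA1) to 0.22 (EEF1D) with a median of 0.04. In Ribo-seq 0 of 10 passed, against 0% of 11288 genes, with 885 genes and no member at an unadjusted p under 0.05, and DESeq2 called 120 genes and limma 0, none of them a member. The footprint differences ran from −0.16 (NACA) to 0.17 (EEF1G), with a median of −0.01. For footprints per RNA 0 of 10 passed, against 0.00896% of 11166 genes (87 at an unadjusted p under 0.05, no member; DESeq2 called 5 genes and limma 0), and the differences ran from −0.24 (EEF1D) to 0.16 (HNRNPA1). For footprints per RNA the lowest 95% confidence bound among the 10 was −1.18 (EEF1D) and the highest 1.23 (NAP1L1). The intervals differed by gene, from −0.50 to 0.62 for BTF3 and from −1.09 to 1.23 for NAP1L1. At this depth and number of libraries, a difference within a gene's own interval could not be told apart from 0. EEF1A1, for example, had 13720 and 13696 scaled footprint CPM in young controls and 14125 and 11715 in senescent controls.

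**Figure D1:**
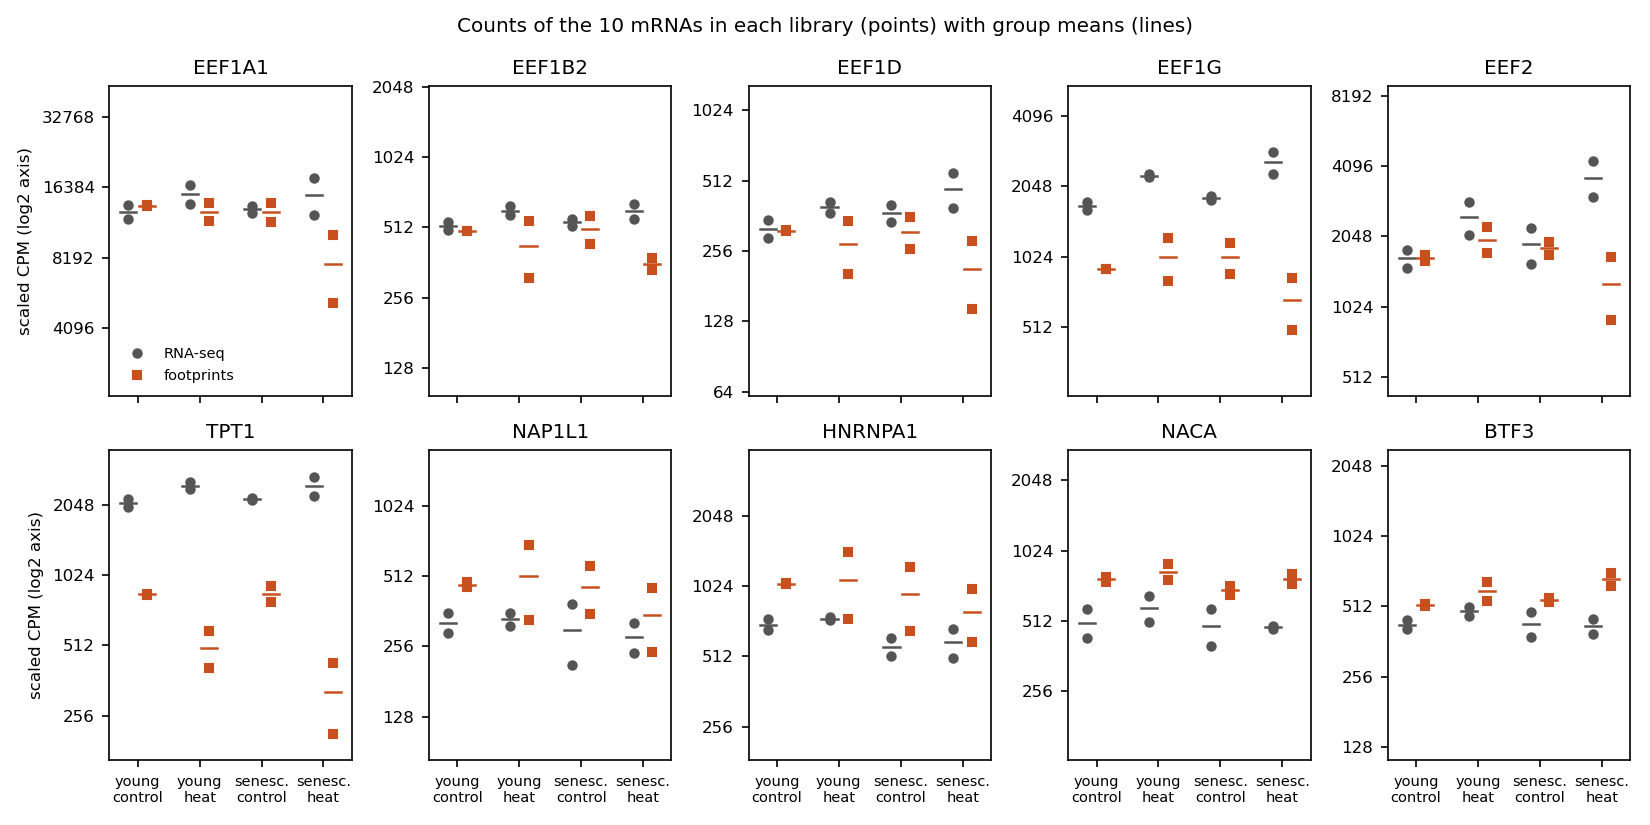
Scaled CPM (log2 axis, spanning the same fold range in each panel) of the 10 mRNAs in RNA-seq (grey circles) and Ribo-seq (orange squares), 2 libraries per group, with the mean of each group as a line. Footprints of TPT1 lie between 215 and 592 CPM in the heat shock libraries and between 785 and 915 CPM in the controls, while its RNA stays between 2003 and 2700 CPM.

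On heat shock no RNA of the 10 mRNAs passed the test, and EEF2 and EEF1G had the largest values. In young cells 0 of 10 passed (1.14% of 13177 genes did), and in senescent cells 0 of 10 passed (0.577% of genes did). DESeq2 called 445 genes in young and 285 in senescent cells, limma 192 and 128, and no member was among them. At an unadjusted p under 0.05 there was 1 member in young cells (EEF1G) and 2 in senescent cells (EEF1G and EEF2). The median change of the 10 was 0.23 in young and 0.17 in senescent cells, beside 0.01 and −0.01 over all genes tested. The sign of these small values depends on the scaling: with library size alone the medians were −0.05 and −0.06, and the medians of all genes −0.27 and −0.23. Relative to all genes the members stood higher under both scalings. In young cells 7 of the 10 had higher scaled CPM in both heat shock libraries than in both controls, as did 19.5% of all genes. In senescent cells 3 of the 10 did (EEF1G, EEF2 and TPT1), as did 14.7% of all genes.

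EEF2 showed the largest RNA change among the 10 in both cell states. Its RNA was at 1497 and 1800 scaled CPM in young controls, 2073 and 2889 after heat shock, 1557 and 2232 in senescent controls and 3017 and 4291 in senescent cells after heat shock. Both heat shock libraries lay above both controls in each state. The change was 0.59 ± 0.27 (SE, adjusted p = 0.538) in young and 0.95 ± 0.27 (adjusted p = 0.285) in senescent cells, and neither passed. With the replicate number as a block in the edgeR fit they were 0.57 (adjusted p = 0.0216) and 0.95 (adjusted p = 0.00368) and passed. In those fits 8.77% and 6.28% of all genes passed, and the labels do not say what the replicate numbers mark. EEF1G, the subunit that anchors the eEF1B complex, had the next largest values, 0.42 ± 0.17 (adjusted p = 0.436) and 0.50 ± 0.17 (adjusted p = 0.421). With the block it passed in senescent cells only (0.49, adjusted p = 0.0462). The other 8 lay between 0.05 and 0.30 in young cells and between −0.10 and 0.34 in senescent cells. RNA of EEF1G was at 1628 and 1763 scaled CPM in young controls, 2241 and 2307 after heat shock, 1801 and 1871 in senescent controls and 2311 and 2879 after heat shock, with no overlap in either state.

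Footprints of the 10 mRNAs did not pass in young cells after heat shock (0 of 10, against 1.15% of 11288 genes), and 1 of 10, TPT1, fell in senescent cells, where 8.35% of genes passed and 5.24% passed as lower. In young cells DESeq2 called 3.96% of all genes and limma 0.696%, with no member, and 1 member (TPT1) had an unadjusted p under 0.05. In senescent cells they called 13.4% and 8.68% of all genes, and TPT1 alone among the members. The median change was 0.08 in young and −0.50 in senescent cells, beside −0.01 and 0.03 over all genes. The young median has no stable sign: with library size alone it was −0.21, with 10 of 10 below 0 and a median of −0.28 over all genes, and it was −0.36 without young heat shock Ribo-seq library 1 and 0.25 without library 2. With library size alone the senescent median was −0.77, beside −0.25 over all genes. In senescent cells 8 of the 10 values were below 0 and 2, NACA and BTF3, above. Footprints of 5 of the 10 were lower in both heat shock libraries than in both controls (EEF1A1, EEF1B2, EEF1G, EEF2 and TPT1), as were those of 27.0% of all genes, and those of NACA and BTF3 were higher in both, as were those of 26.8% of all genes.

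TPT1 codes for the translationally controlled tumour protein, a small abundant protein whose mRNA is a long-known TOP mRNA, and its tract is the CTTTTCC shown above. Its footprints were at 852 and 842 scaled CPM in young controls, 592 and 409 after heat shock in young cells, 915 and 785 in senescent controls and 429 and 215 after heat shock in senescent cells. All 4 heat shock libraries lay below all 4 controls. Its RNA was at 2003 and 2162 scaled CPM in young controls and 2550 and 2387 after heat shock, and at 2179 and 2144 in senescent controls and 2224 and 2700 after heat shock, with no fall in either state. The footprint change was −1.40 ± 0.31 (SE, adjusted p = 0.0327) in senescent cells, or 0.379 of the control level, and −0.76 ± 0.31 (adjusted p = 0.288) in young cells. Footprints per RNA of TPT1 changed by −1.59 ± 0.38 (adjusted p = 0.0447) in senescent cells, to 0.333 of the control ratio, and by −1.01 ± 0.38 (adjusted p = 1) in young cells.

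The TPT1 fall kept its direction in every fit with a library left out, but often not its call. With 1 library left out at a time the footprint change in senescent cells ran from −2.02 to −1.02, and it did not pass in 5 of the 8 fits. These were the fits without either young control, either senescent control or senescent heat shock library 2, with adjusted p up to 0.128. Without senescent heat shock Ribo-seq library 2 the change was −1.02 (adjusted p = 0.0863). Footprints per RNA ran from −2.20 to −1.21 and did not pass in 13 of the 16 fits, with adjusted p up to 0.177; it passed only without either young heat shock Ribo-seq library or senescent heat shock Ribo-seq library 1. With the nearly identical young controls summed into 1 sample, the footprint change was −1.40 (adjusted p = 0.0696) and the change per RNA −1.58 (adjusted p = 0.0812).

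EEF1A1, the most abundant of the 10, codes for the GTPase that delivers aminoacyl-tRNA. Its footprints were at 13720 and 13696 scaled CPM in young controls, 14028 and 11759 after heat shock, 14125 and 11715 in senescent controls and 10260 and 5229 after heat shock in senescent cells. The senescent heat shock libraries lay below all others, and library 2 lay far below library 1. Its RNA went from 12007 and 13765 to 13967 and 16863 in young cells and from 13678 and 12752 to 12435 and 17912 in senescent cells, and the senescent groups overlapped. The footprint change was −0.09 ± 0.30 in young cells (adjusted p = 0.922) and −0.74 ± 0.30 in senescent cells (adjusted p = 0.148), and neither passed. Without senescent heat shock Ribo-seq library 1 the senescent value was −1.34 (adjusted p = 0.00999) and passed, in a fit where 16.7% of all genes passed, and without library 2 it was −0.37 (adjusted p = 0.378).

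The eEF1B subunits, which exchange the nucleotide on eEF1A, gave footprint changes in senescent cells of −0.49 ± 0.27 for EEF1B2, −0.53 ± 0.35 for EEF1D and −0.62 ± 0.30 for EEF1G. The adjusted p-values were 0.26, 0.347 and 0.208, and none passed. Footprints of EEF1G were at 1180 and 865 scaled CPM in senescent controls and 834 and 499 after heat shock, and those of EEF1D at 358 and 261 and at 284 and 145. Both EEF1G heat shock libraries lay below both controls, while those of EEF1D overlapped the controls. EEF1B2 went from 572 and 435 to 380 and 337 scaled CPM, without overlap. In young cells the same subunits lay between −0.21 (EEF1B2) and 0.17 (EEF1G), with heat shock libraries on both sides of the controls: EEF1B2 had 543 and 311 scaled CPM after heat shock and 494 in each control, EEF1D had 343 and 204 against 314 and 313, and EEF1G had 1235 and 807 against 908 and 909. RNA of EEF1B2 was at 541 and 499 scaled CPM in young controls, 629 and 580 after heat shock, 557 and 520 in senescent controls and 554 and 645 after heat shock. RNA of EEF1D was at 291 and 346, 373 and 414, 342 and 402, and 389 and 551 in the same order. For both genes the heat shock libraries lay above the controls in young cells and overlapped them in senescent cells.

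EEF2, the translocase, had 1608 and 1699 scaled footprint CPM in young controls, 2241 and 1731 after heat shock, 1945 and 1698 in senescent controls and 1667 and 895 after heat shock in senescent cells. Young heat shock libraries lay above the controls and senescent ones below. The changes were 0.26 ± 0.28 (adjusted p = 0.699) and −0.51 ± 0.28 (adjusted p = 0.272). Without senescent heat shock Ribo-seq library 1 the second was −1.06 (adjusted p = 0.0213), and without library 2 it was −0.16 (adjusted p = 0.718).

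NAP1L1, the histone chaperone, and HNRNPA1, a nuclear RNA-binding protein that shuttles to the cytoplasm and acts in splicing, differed widely between the libraries of a group, except in the young controls. Footprints of HNRNPA1 were at 1039 and 1055 scaled CPM in young controls, 1428 and 738 after heat shock, 1228 and 656 in senescent controls and 993 and 590 after heat shock in senescent cells. Those of NAP1L1 were at 457 and 482, 692 and 333, 566 and 351, and 455 and 242 in the same order. Outside the young controls, library 1 was above library 2 in every group for both genes, and the heat shock libraries overlapped the controls in both states. RNA of NAP1L1 was at 354 and 292 scaled CPM in young controls, 354 and 312 after heat shock, 386 and 213 in senescent controls and 322 and 239 after heat shock. RNA of HNRNPA1 was at 737 and 661, 753 and 730, 615 and 512, and 503 and 670 in the same order, with overlap between heat shock and control in both states for both genes. The footprint changes in senescent cells were −0.39 ± 0.40 for NAP1L1 (adjusted p = 0.546) and −0.25 ± 0.39 for HNRNPA1 (adjusted p = 0.699).

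NACA and BTF3 code for the alpha and beta subunits of the nascent polypeptide-associated complex, which meets new chains at the ribosome exit, and theirs were the values above 0 in senescent cells. Footprints of BTF3 were at 524 and 514 scaled CPM in young controls, 649 and 537 after heat shock, 558 and 534 in senescent controls and 624 and 713 after heat shock in senescent cells, above the controls of each state. Footprints of NACA were at 792 and 751, 897 and 770, 721 and 665, and 741 and 814 in the same order. They were the only members with a higher value in senescent heat shock library 2 than in library 1. The changes in senescent cells were 0.29 ± 0.18 for BTF3 (adjusted p = 0.307) and 0.17 ± 0.17 for NACA (adjusted p = 0.554), with 95% intervals of −0.11 to 0.69 and −0.22 to 0.55. RNA of NACA was at 577 and 432 scaled CPM in young controls, 655 and 509 after heat shock, 574 and 400 in senescent controls and 476 and 488 after heat shock. RNA of BTF3 was at 449 and 408, 511 and 467, 486 and 377, and 391 and 451 in the same order. The senescent groups overlapped for both genes, and in young cells the heat shock libraries lay above the controls for BTF3 and overlapped them for NACA. Both genes have a tract of 6 pyrimidines at the annotated start, CCCTTT and CTTTCT.

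**Figure D2:**
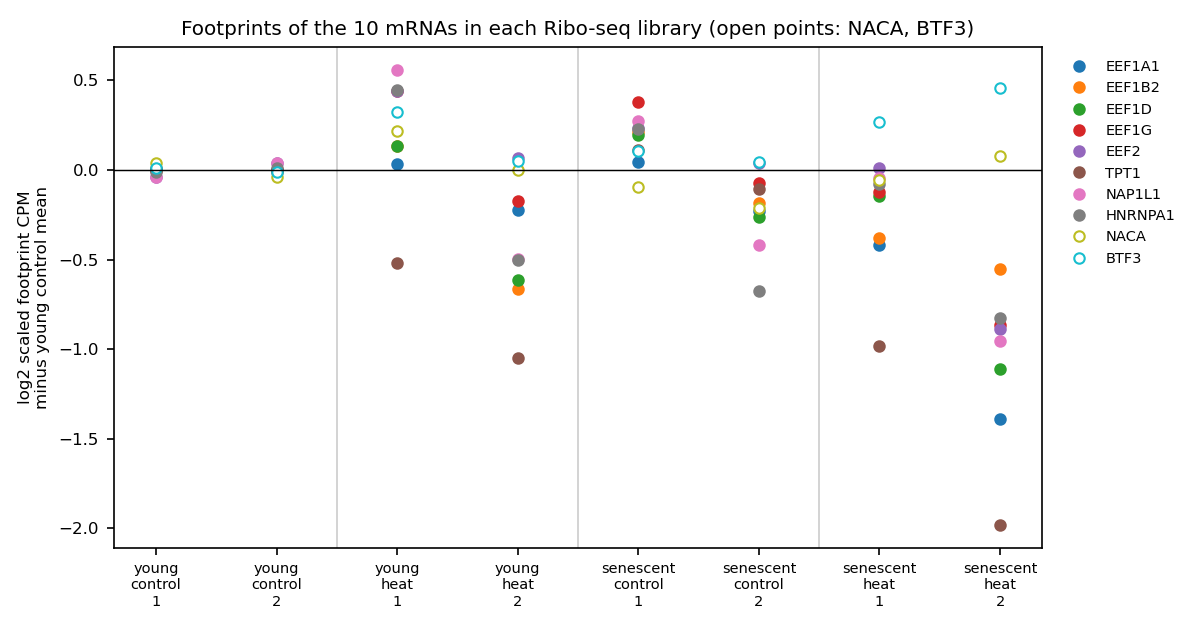
Footprints of each of the 10 mRNAs in each Ribo-seq library, as log2 scaled CPM minus the mean of the young controls. In senescent heat shock library 2 the members other than NACA and BTF3 (open points) lie below the young control mean, TPT1 lowest, while the points of the young controls nearly coincide.

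Each senescent heat shock library can be set against the mean of the senescent controls. In library 1 the median over the 10 mRNAs was −0.12 and 6 of 10 were below 0. In library 2 the median was −0.95 and 8 of 10 were below 0, and these 8 were all lower in library 2 than in library 1. TPT1 was lowest in both, at −0.98 and −1.98, and the next lowest in library 1 was EEF1B2 at −0.39. Without library 2 the median footprint change of the 10 in senescent cells was −0.16, and without library 1 it was −1.01. The 10 mRNAs together took 2.32% and 1.97% of footprint counts in senescent controls, 1.51% and 0.831% after heat shock, and 2.33% and 2.35% in young controls against 2.03% and 1.71% after heat shock. Their share of RNA-seq counts lay between 2.18% and 2.64% in all 8 libraries.

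Footprints per RNA set the footprint change against the RNA change. In young cells 0 of 10 passed on heat shock, against 0.0896% of 11166 genes, with 1 member (TPT1) at an unadjusted p under 0.05. In senescent cells 1 of 10, TPT1, fell, where 2.33% of genes passed and 2.10% passed as lower. In senescent cells DESeq2 called TPT1 and EEF2, among 644 genes, and limma called TPT1, among 203 genes. In young cells DESeq2 called 47 genes and limma 9, with no member among them. The median was −0.29 in young cells, with 9 of 10 below 0, and −0.75 in senescent cells, with 8 of 10 below 0, beside 0.01 and 0.07 over all genes. In senescent cells EEF2 followed TPT1 at −1.45 ± 0.41 (adjusted p = 0.0892, DESeq2 adjusted p = 0.0219 at −1.48), with the RNA value above 0 and the footprint value below it. EEF1G was at −1.11 ± 0.36 (adjusted p = 0.14), EEF1A1 at −0.94 ± 0.38 (adjusted p = 0.232), EEF1D at −0.86 ± 0.44 (adjusted p = 0.337) and EEF1B2 at −0.64 ± 0.33 (adjusted p = 0.34). Confidence intervals spanned 0 for NAP1L1 (−0.30 ± 0.54), HNRNPA1 (−0.31 ± 0.47), NACA (0.18 ± 0.30) and BTF3 (0.33 ± 0.26). Those of EEF1D and EEF1B2 spanned 0 too, and 4 of the 10 members had an unadjusted p under 0.05 in senescent cells. Without senescent heat shock Ribo-seq library 2 none of the 10 passed and the median was −0.54; without library 1, 4 of 10 passed (EEF1A1, EEF1G, EEF2 and TPT1) and the median was −1.16. The shares of all genes that passed in these fits were 0.559% and 5.92%.

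**Figure D3:**
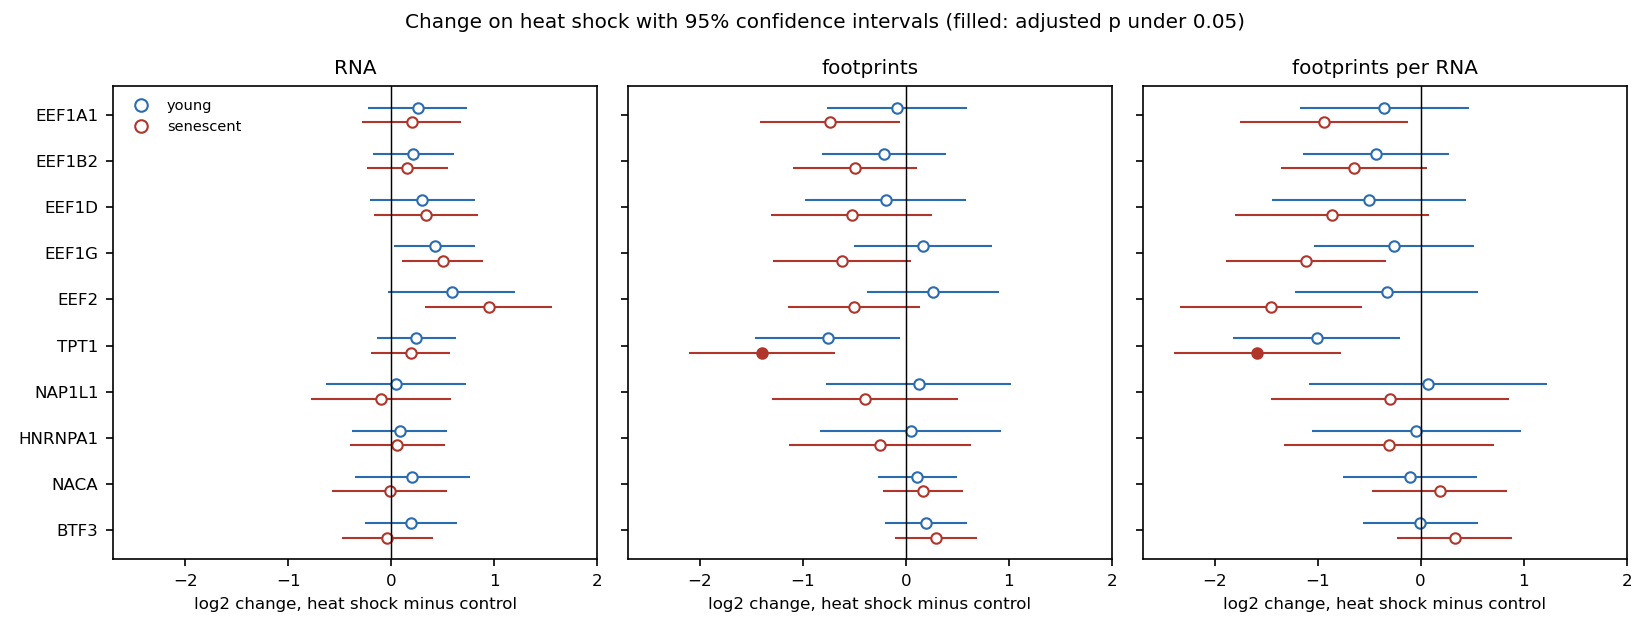
Log2 change on heat shock of RNA, footprints and footprints per RNA for the 10 mRNAs in young (blue) and senescent (red) cells, with 95% confidence intervals; filled points passed at an adjusted p under 0.05. TPT1 in senescent cells is the only filled point, for footprints (−1.40) and for footprints per RNA (−1.59), and in both footprint panels the senescent points of the 5 elongation factors lie to the left of the young ones with intervals that overlap.

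Whether heat shock acted differently in senescent and young cells was tested directly, as the heat change in senescent minus that in young cells. In RNA 0 of 10 passed (0% of genes, 119 at an unadjusted p under 0.05; DESeq2 called 3 genes and limma 2). In footprints 0 of 10 passed (0% of genes, 554 at an unadjusted p under 0.05; DESeq2 called 10 genes and limma 0). In footprints per RNA 0 of 10 passed (0.00896% of genes), and none of the 10 had an unadjusted p under 0.05 in any of these tests or was called by DESeq2 or limma. The largest values were those of EEF2, −1.12 ± 0.58 for footprints per RNA, and EEF1G, −0.78 ± 0.42 for footprints. The intervals were wide: that of EEF2 ran from −2.38 to 0.13 and that of TPT1, at −0.58 ± 0.53, from −1.72 to 0.57. The lower values in senescent cells are therefore not shown to differ from those in young cells.

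Senescent and young cells were also compared after heat shock. No member passed in RNA (0 of 10, 0% of genes, 1520 at an unadjusted p under 0.05; DESeq2 called 245 genes and limma 6), in footprints (0 of 10, 0.00886% of genes; 1 member, EEF1A1, at an unadjusted p under 0.05) or in footprints per RNA (0 of 10, 0% of genes, 733 at an unadjusted p under 0.05, among them EEF1G and EEF2; DESeq2 called 23 genes and limma 0). Footprint differences had a median of −0.50 over the 10, with 9 below 0 and EEF1A1 lowest at −0.74 ± 0.30 (adjusted p = 0.365). For footprints per RNA EEF2 was lowest at −1.19 ± 0.41 (adjusted p = 0.732). These values share the senescent heat shock libraries with the change on heat shock above. The footprint median moved with each heat shock library: it was −0.20 without senescent library 2, −1.0 without senescent library 1, −0.0028 with 5 of 10 below 0 without young library 1, and −0.85 without young library 2. Without senescent library 1 EEF1A1 (−1.33), EEF2 (−1.18) and TPT1 (−1.25) passed in footprints, as did 4.26% of all genes.

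The footprint level of each gene over the 8 Ribo-seq libraries was also set against the mean of the 10. That mean holds each member itself, which raises the members' own correlations, and the points share library, depth and scaling. The correlation (Pearson's r) of each gene's log2 scaled CPM with this mean was 0.85 for TPT1, 0.87 for EEF1B2, 0.90 for EEF2 and HNRNPA1, 0.92 for EEF1A1, 0.96 for NAP1L1, 0.97 for EEF1G and 0.98 for EEF1D. For NACA it was 0.05 and for BTF3 −0.44. Its median was 0.75 over 78 ribosomal protein genes and −0.09 over all genes ranked. The genes ranked were the 7939 of at least 10 CPM, members and ribosomal protein genes included. Among those that are neither, the 5 closest to that mean over the 8 libraries were CDR2 (0.99), NUS1 (0.98), CUL4A (0.98), TXNDC5 (0.98) and GTF2A1 (0.98). TXNDC5, which codes for a protein disulfide isomerase of the endoplasmic reticulum, had 310 and 320 scaled footprint CPM in young controls. After heat shock it had 394 and 226 in young cells. In senescent cells it had 335 and 287 in controls and 234 and 131 after heat shock.

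**Figure D4:**
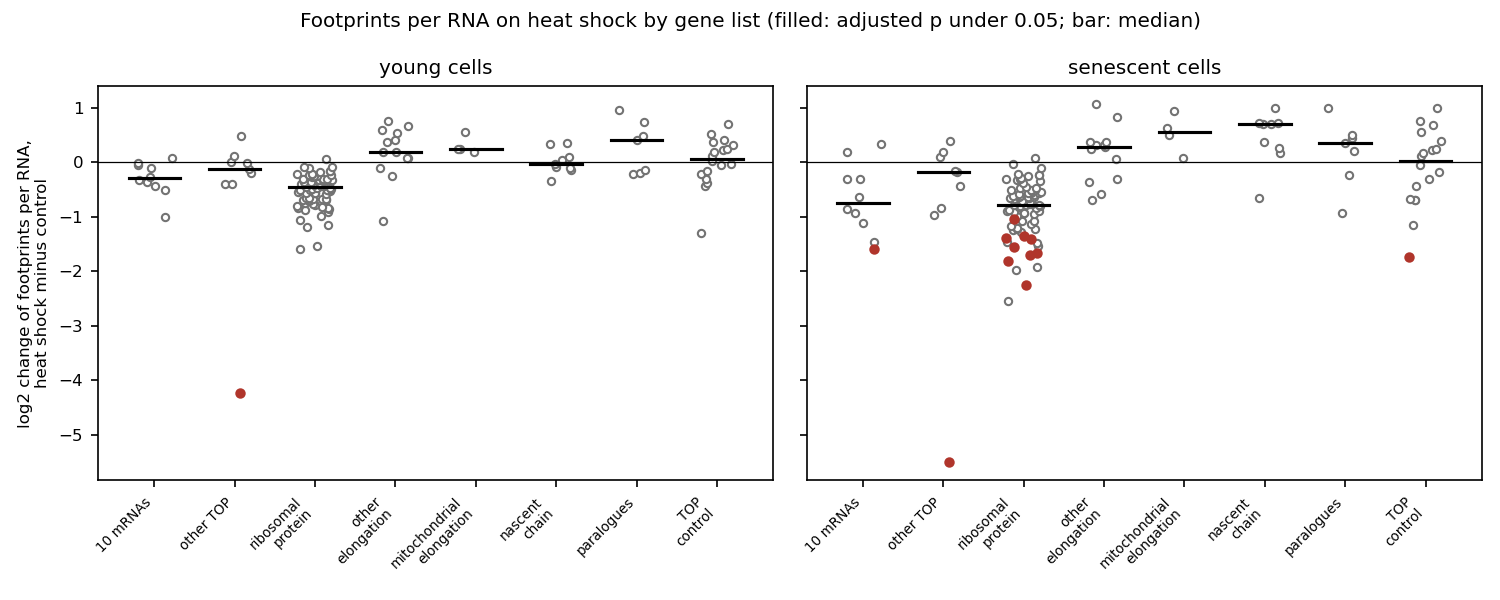
Log2 change in footprints per RNA on heat shock for the 10 mRNAs and 7 lists of related genes in young (left) and senescent (right) cells, each point a gene, the bar the median, filled points at an adjusted p under 0.05. The 10 mRNAs (median −0.75) and the ribosomal protein genes (median −0.78) lie lower in senescent cells than the list medians of the other elongation, nascent chain and paralogue genes, and PABPC1 lies lowest of all at −5.50.

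Other mRNAs known to start with a TOP tract gave a mixed picture. Of 9 further TOP mRNAs, 1 fell in footprints per RNA in both states, PABPC1, the main cytoplasmic poly(A)-binding protein: −4.23 ± 0.51 (adjusted p = 0.00465) in young and −5.50 ± 0.52 (adjusted p = 0.000782) in senescent cells. Its footprints stood at 180 and 171 TPM in young controls and 10.1 and 8.39 after heat shock, and at 193 and 142 in senescent controls and 5.85 and 1.72 after heat shock, far below the controls in every library. Without young heat shock Ribo-seq library 2 the young value was −4.10 and did not pass (adjusted p = 0.0578). In senescent cells RACK1, a protein of the small ribosomal subunit, was at −0.84 ± 0.28 (adjusted p = 0.149) and NOP53, listed as GLTSCR2, at −0.96 ± 0.49 (adjusted p = 0.338). The initiation factor subunits EIF3A (0.40), EIF3E (0.19), EIF3F (−0.43) and EIF3H (0.09), the initiation factor EIF4B (−0.16) and the intermediate filament gene VIM (−0.17) did not pass. The median of these 9 was −0.11 in young and −0.17 in senescent cells.

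Ribosomal protein genes, the largest class of TOP mRNAs, had medians near those of the 10 in senescent cells in the fit over all libraries. The difference from the 10 was not tested. Without senescent heat shock Ribo-seq library 1 the footprint median was −0.74, beside −1.01 for the 10, and without library 2 it was −0.45, beside −0.16. In young cells it was −0.21, beside 0.08 for the 10. With library size alone these were −0.48 and −0.21, and without young heat shock Ribo-seq library 1 −0.33 and −0.36. Of 78 tested, 10 fell in footprints in senescent cells on heat shock, as did 5.24% of all genes, and 9 in footprints per RNA, as did 2.10%. The medians were −0.52 and −0.78. None passed in young cells, where the medians were −0.21 and −0.45. In footprints per RNA 77 of 78 were below 0 in each state, with RPSA above 0 in young and RPS26 in senescent cells, and in senescent cells they ran from −2.55 to 0.08. The lowest, RPL36A, did not pass. The counts moved widely with the setting and with a library left out, as did the share of all genes that passed. In footprints 36 fell with library size alone, where 12% of all genes passed, and 21 with DESeq2, where 13.4% passed. Only 3 fell with only the groups compared, where 2.49% of all genes passed. The main edgeR fit passed 8.35%. In footprints per RNA 25 fell with DESeq2, where 644 genes passed, against 260 in the main edgeR fit.

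The lists of genes from the same processes had medians above 0 in footprints per RNA in senescent cells. None of 13 other genes of cytosolic elongation passed in footprints per RNA, with medians of 0.19 in young and 0.27 in senescent cells. EIF5A, the hypusine-carrying factor that helps ribosomes past difficult peptide bonds, rose in footprints in senescent cells (1.04 ± 0.19, adjusted p = 0.0185), from 1710 and 1421 to 2698 and 2611 TPM. In footprints per RNA it was at 0.83 ± 0.27 (adjusted p = 0.133), beside DPH3 (0.31) and DPH5 (0.32), which make the diphthamide residue of eEF2, and the ribosome rescue factor PELO (0.07). All 4 mitochondrial elongation factors (TUFM, TSFM, GFM1 and GFM2) were above 0 in footprints per RNA in both states and none passed, with medians of 0.24 and 0.56 and the largest value in GFM1 (0.94 ± 0.36, adjusted p = 0.2, in senescent cells). Of 9 genes of nascent chain binding and the signal recognition particle none passed in footprints per RNA, with a median of 0.70 in senescent cells, where the SRP subunits SRP9 (0.71), SRP14 (0.72), SRP68 (0.37) and SRP72 (0.16) were the most abundant. NACAD, a relative of NACA, fell in footprints there (−1.57 ± 0.34, adjusted p = 0.0282), and in young cells it fell in RNA (−1.43 ± 0.25, adjusted p = 0.0496). Of the paralogues of NAP1L1 and HNRNPA1, none of 7 passed, with HNRNPA2B1 at 1.00 ± 0.48 (adjusted p = 0.308), HNRNPA3 at 0.44, HNRNPAB at 0.21 and NAP1L4 at 0.36 in senescent cells. Among 18 genes that control TOP mRNAs or bind them, 1 passed in footprints per RNA: EIF4EBP2, a 4E-BP that holds back the cap-binding factor eIF4E, fell in senescent cells (−1.74 ± 0.40, adjusted p = 0.0382). The most abundant of the 18, SSB (0.69), CNBP (0.55), EIF4EBP1 (0.11) and RPS6KB2 (−0.70), did not pass.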

How the data were processed

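RNA-seq and Ribo-seq were measured in 16 libraries, 2 in each of 8 groups taken from the labels, and all 32 deposited value columns were mapped by name. Tools and build named per the submitters' processing notes are Bowtie2, STAR, RSEM and hg19, with roles and versions not given. The deposited values are expected counts from RSEM, 1 whole number per gene and library, and TPM, per the file headers. Which annotation was used, and whether footprints were counted in coding sequence alone, is not stated in those sources. RSEM shares reads between near-identical genes, so counts of genes with copies are uncertain.

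Low counts were removed by filterByExpr. The rest were scaled within each assay by TMM, and edgeR 4.0.16 (R 4.3.3) gave quasi-likelihood tests, 1 mean per group, all libraries of the assay sharing the spread. Footprints per RNA used 1 fit over all 16 libraries. P-values were adjusted over all genes tested (Benjamini-Hochberg, 0.05). The standard errors and 95% intervals come from the same fit. Alternatives were DESeq2 1.42.0 and limma 3.58.1 on log2(TPM + 1) and log2(TPM + 0.1). Further ones were other scaling, no filter, a replicate block, only the groups compared, and each library left out. Summing the young control Ribo-seq libraries was added after seeing the data. The ranges given below for calls among all genes leave that setting out. The steps were tested on simulated data. The 10 mRNAs, the gene lists and these tests were chosen with earlier results of these data known. Named genes were the 10, the 9 other TOP mRNAs, genes of the other lists that passed or were most abundant, ribosomal protein genes by counts and extremes, and the 5 genes most like the mean of the 10. Promoter sequences are from RefSeq on GRCh38.p14, another build than that of the tables.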

Additional observations from a re-analysis of the deposited data

How the results depend on the processing

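With 2 libraries a group, both calls and values moved when a library was left out. The number of the 10 mRNAs that passed on heat shock in senescent cells was 1 in footprints; it was 2 with no filter on low counts, 2 with a replicate block, 0 with only the groups compared, 0 with the young controls as 1 sample, and 0 to 3 with each library left out. In footprints per RNA it was 1; it was 3 with the block, 2 with DESeq2, 0 with only the groups compared, 0 with the young controls as 1 sample, and 0 to 4 with each library left out. For senescent against young cells after heat shock, footprints gave 0, and 0 to 3 with each library left out. In RNA the count of 0 became 1 (EEF2) in young cells, 2 (EEF1G and EEF2) in senescent cells and 1 (EEF2) after heat shock with the block, where 8.77%, 6.28% and 13.7% of all genes passed; the cause was not tested. In footprints of senescent cells 10.4% of all genes passed with no filter and 2.49% with only the groups compared, against 8.35% in the main fit. In these settings the count of the 10 moved in the same direction as the share of all genes. With the block 14.8% of all genes passed in footprints and 10.6% in footprints per RNA in senescent cells. Ribosomal protein genes that fell there numbered 30 and 36 with the block, against 10 and 9. Same-numbered libraries deviated together in RNA-seq (correlations of 0.59 to 0.81 between groups) and less so in Ribo-seq (−0.05 to 0.37), and with 2 numbers whose meaning the labels do not give, the pairing is not established. Over 150 values of the 10 mRNAs and 2870 alternatives, no value that passed changed sign; 22 lost the call, 17 gained it, and 243 changed sign without passing on either side. Among all genes, those called in footprints in senescent cells on heat shock numbered 943, 270 to 1667 under the alternatives and 237 to 1934 with a library left out. In footprints per RNA they numbered 260, 52 to 1187 and 48 to 677. In young cells they numbered 130 in footprints (54 to 447, 27 to 275), 150 in RNA (48 to 1156, 33 to 123) and 10 in footprints per RNA (8 to 57, 5 to 19), and 76 in RNA of senescent cells (55 to 828, 15 to 65). With library size alone 87.2% of the footprint calls in senescent cells were lower instead of 62.7%, 71.3% instead of 33.1% in young cells, and in RNA 69.1% instead of 41.3% in young and 56.4% instead of 36.8% in senescent cells. Fewer cells and less RNA per cell cannot be told apart in these libraries, and a change in total RNA or total footprints is not measured.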
